A study of Mus musculus with 6 samples.

Results

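This account covers 35 genes of the coagulation and complement systems in RNA from mouse fetal liver. A list of 38 gene symbols was matched to the annotation of the array, and 35 of them had at least 1 probe set that named no other gene, out of 20678 genes measured in that way. C3, C4b and Cfb were named only on probe sets that also name another gene, and they were left out of every count. RNA came from livers of wild type C57Bl6 embryos of stage E12.5 and was hybridised to 6 Affymetrix Mouse Genome 430 2.0 arrays, 1 for each group. They comprised unsorted liver cells, cells positive for the adhesion molecule ALCAM (ALCAM+), ALCAM+ cells with or without the surface glycoprotein podoplanin (PDPN+ and PDPN-), and ALCAM+ cells with or without integrin alpha 8 (ITGA8+ and ITGA8-). The study set out to isolate stellate cells, the vitamin A storing mesenchyme of the liver, by integrin alpha 8. Whether embryos were pooled, and whether the fractions came from the same cells, is not given in the sources used here.

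Blood clotting is a chain of proteases. Tissue factor on cell surfaces starts it, cofactors speed each step, thrombin cuts fibrinogen into fibrin, and inhibitors such as antithrombin and the protein C pathway hold it in check, while plasmin dissolves the clot. Complement is a related chain of plasma proteases that marks targets through its classical, lectin and alternative routes and ends in a membrane pore. Hepatocytes make most of these plasma proteins, and their fetal precursors, the hepatoblasts, begin to do so before birth. Endothelium, mesothelium, mesenchyme, platelets and macrophages make some of the others.

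With 1 array per group there is no replicate, so no test and no spread between samples can be given, and every difference below is one between 2 arrays. Values are intensities on a linear scale, and differences are of log2(intensity + 16). The 4 fraction arrays share one scale, and the ALCAM+ and liver arrays lie on a lower one, with median probe set intensities of 123 to 200 against 42 to 66, so levels were compared only within each set. Each comparison took in the genes whose brighter array was above the median of its set of arrays, an intensity of 168 for the fractions and 52 for ALCAM+ and liver. Among the fractions, PDPN- stood apart in its megakaryocyte, macrophage and neutrophil markers, and PDPN+ in the last 2 of these. None of these markers was listed at 0. Of 10 megakaryocyte markers, 0 were above 168 in PDPN-, against 9 in PDPN+, 10 in ITGA8+ and 8 in ITGA8-. Of 8 macrophage markers, 0 were above it in PDPN-, 8 in PDPN+ and 3 in each ITGA8 array, and of 6 neutrophil markers 0, 6 and 1. Summed neutrophil intensities were 24877 and 101 in PDPN+ and PDPN- against 2652 and 1736 in ITGA8+ and ITGA8-, so PDPN+ lay above and PDPN- below both ITGA8 arrays. Most of the ITGA8 sums came from Mpo, at 2532 in ITGA8+ and 1618 in ITGA8-, with 1553 in PDPN+ and 1 in PDPN-. The sort genes followed the labels, with Pdpn at 7746 in PDPN+ and 117 in PDPN-, and Itga8 at 4354 in ITGA8+ and 871 in ITGA8-. In sorted populations such as these, fewer cells of a type and less RNA per cell cannot be told apart.

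The factors that hepatocytes make were lower in PDPN+ than in PDPN- cells, and a few that endothelium and mesothelium make were higher. From textbook knowledge, 25 of the 38 listed genes were put down as made mainly by hepatocytes and 13 as made also or mainly by other cells. Earlier results of these data were known when the lists were drawn up, so counts by source are descriptions only. Of the 35 genes, 34 were above the floor in the PDPN sort, all but C6. Of these, 14 were 2-fold lower in PDPN+, against 7.59% of all 12532 genes above the floor, and 3 were 2-fold higher, against 18.6%. Their median was -0.91 on the log2 scale, against 0.03 for all genes. The 24 hepatocyte-made genes above the floor all had a lower value in PDPN+ than in PDPN-, where 48.5% of all genes did, with a median of -1.003 and a range from -3.04 to -0.47. The 10 others ran from -1.96 to 2.93, with 5 on each side of 0. In 6 genes only 1 of the 2 arrays was above the floor (F9 and C9 in PDPN-, F3, F8, Procr and Thbd in PDPN+), so these had to differ to enter. Among the 4 fractions, 29 of the 34 genes had their highest value in PDPN-, against 27.2% of 13394 genes.

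**Figure D1:**
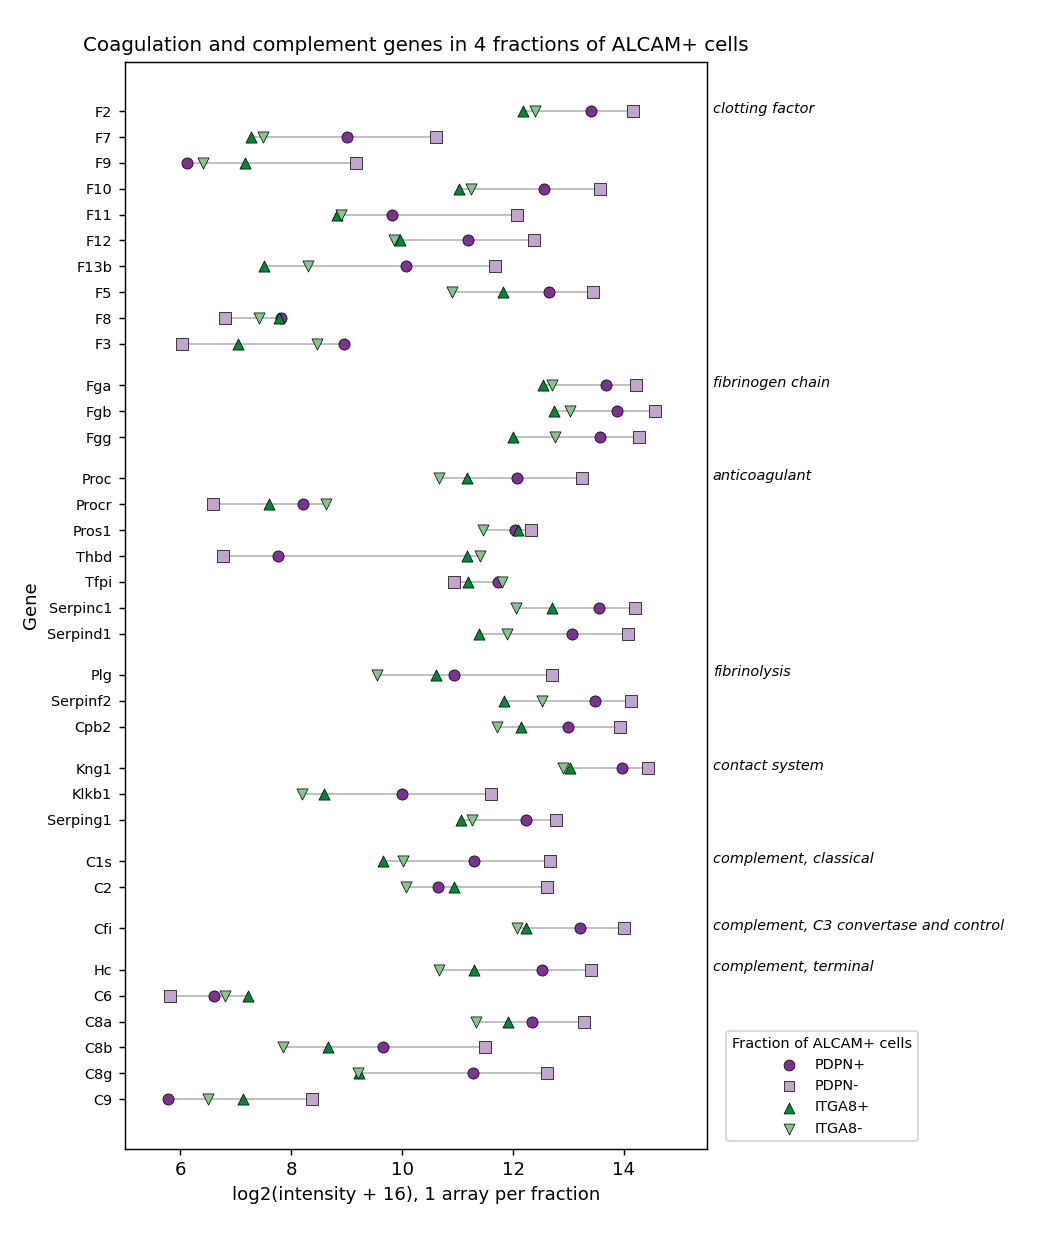
Intensity of the 35 genes as log2(intensity + 16) in the 4 fractions of ALCAM+ cells, 1 array and 1 symbol per fraction, grouped by role, with a grey line from the lowest to the highest. PDPN- (pale squares) is the highest fraction for 29 of the 34 genes above the floor, while F3, F8, Procr, Thbd and Tfpi are lowest there.

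Tissue factor, encoded by F3, is the membrane protein that starts clotting when it meets factor VII. F3 had intensities of 480 in PDPN+, 49 in PDPN-, 115 in ITGA8+, 336 in ITGA8-, 74 in ALCAM+ and 11 in liver. It was thus high in PDPN+ and ITGA8- and low in the opposite fractions, 7.63-fold higher in PDPN+ (2.93 log2) and 2.69-fold lower in ITGA8+ (-1.43). Of the fractions, F3 was above the floor in PDPN+ and ITGA8- alone, so in each sort it could enter only in that direction. F7, its protease partner, read 500 in PDPN+, 1541 in PDPN-, 138 in ITGA8+, 165 in ITGA8-, 46 in ALCAM+ and 26 in liver. Receptor and protease therefore lay in opposite directions in the PDPN sort, with F7 3.02-fold lower in PDPN+ (-1.59). Mesothelial markers lay in the direction of F3: 9 of 9, Pdpn itself among them, were 2-fold higher in PDPN+ and 6 of 8 above the floor were 2-fold lower in ITGA8+. Their summed intensity was 56932 and 1447 in PDPN+ and PDPN- against 19635 and 43486 in ITGA8+ and ITGA8-, with none at 0. The part of mesothelial cells in the F3 values was not tested.

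Factor IX and its cofactor, factor VIII, together activate factor X. F9, mutated in haemophilia B, had 54 in PDPN+, 560 in PDPN-, 127 in ITGA8+, 69 in ITGA8-, 23 in ALCAM+ and 8 in liver. It was above the floor in PDPN- alone, where it exceeded PDPN+ 8.23-fold (-3.04), the lowest difference among the 34 genes. F8, mutated in haemophilia A and made chiefly by endothelium of the liver sinusoids, had 209, 96, 204 and 156 in PDPN+, PDPN-, ITGA8+ and ITGA8-, with 77 in ALCAM+ and 16 in liver. Protease and cofactor differed in direction in the PDPN sort. F8 was 2.01-fold higher in PDPN+ (1.01), a call lost with a pseudocount of 64 (0.77) or with quantile normalisation (0.43). In that sort F8 was above the floor in PDPN+ alone, so both genes could enter only in the direction they showed. Of 9 endothelial markers 6 were above the floor there, and 5 of those were 2-fold higher in PDPN+, with summed intensities of 5043 in PDPN+ and 1279 in PDPN-. The part of endothelial cells in the F8 values was not tested.

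Factor X and its cofactor, factor V, convert prothrombin to thrombin. F10 read 6019 in PDPN+, 12142 in PDPN-, 2079 in ITGA8+, 2408 in ITGA8-, 669 in ALCAM+ and 428 in liver, and was 2.01-fold lower in PDPN+ (-1.01, or -0.91 with quantile normalisation). F5 read 6377, 11104, 3586 and 1898 in PDPN+, PDPN-, ITGA8+ and ITGA8-, with 2392 in ALCAM+ and 454 in liver, a difference of -0.80 in the PDPN sort. Prothrombin itself, F2, had 10817, 18347, 4647 and 5394 in the same order of fractions, 1648 in ALCAM+ and 940 in liver, and differed by -0.76. These 3 genes shared 1 pattern: highest in PDPN-, next in PDPN+, and lower in both ITGA8 fractions. Of 13394 genes, 21.1% had both PDPN arrays above both ITGA8 arrays. Platelets also carry factor V. F5 was highest in PDPN-, where 0 of 10 megakaryocyte markers were above the floor, but it was also higher in ITGA8+ than in ITGA8- (0.91) and in ALCAM+ than in liver, where 8 of 10 and 7 of 10 of these markers were 2-fold higher. The other probe set of F5 was at -0.15 in the ITGA8 sort and, relative to the median of all genes, at 0.67 in ALCAM+ against liver. The part of megakaryocytes in the F5 values was not tested.

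The remaining clotting factors showed larger gaps. F11, whose product activates factor IX, had 887 in PDPN+, 4290 in PDPN-, 440 in ITGA8+, 462 in ITGA8-, 167 in ALCAM+ and 91 in liver, and was 4.77-fold lower in PDPN+ (-2.25). F13b, the carrier subunit of the fibrin cross-linking factor XIII, had 1059, 3257, 166 and 300 in PDPN+, PDPN-, ITGA8+ and ITGA8-, with 119 in ALCAM+ and 63 in liver, 3.04-fold lower in PDPN+ (-1.61). F12, which starts the contact route, had 2310, 5317, 979 and 909, with 175 in ALCAM+ and 95 in liver, 2.29-fold lower (-1.20). In each of them PDPN- stood highest and both ITGA8 fractions lowest, where 21.1% of 13394 genes had both PDPN arrays above both ITGA8 arrays. By role, 6 of 10 clotting factors were 2-fold lower in PDPN+ (F7, F9, F10, F11, F12 and F13b), beside 7.59% of all genes. Another 2 were 2-fold higher (F3 and F8), beside 18.6%. In the PDPN sort F9, F3 and F8 were above the floor in 1 array alone. F10 and F8 fell short of 2-fold with quantile normalisation.

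The 3 fibrinogen chains are assembled into a single protein and their genes lie next to each other on chromosome 3. Fga had 13017 in PDPN+, 19011 in PDPN-, 5963 in ITGA8+, 6638 in ITGA8-, 2187 in ALCAM+ and 2210 in liver. Fgb had 15011, 24018, 6783 and 8376 in PDPN+, PDPN-, ITGA8+ and ITGA8-, with 3831 in ALCAM+ and 2955 in liver. Fgg had 12191, 19677, 4056 and 6933, with 3077 in ALCAM+ and 2553 in liver. All 3 kept the same order of the fractions, with PDPN- first and ITGA8+ last. Their differences in the PDPN sort, -0.55, -0.68 and -0.69, lay close together and none reached 2-fold.

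Of the 7 anticoagulants, 1 was 2-fold lower in PDPN+ (Proc) and 1 was 2-fold higher (Procr), beside 7.59% and 18.6% of all genes. Antithrombin (Serpinc1), heparin cofactor II (Serpind1) and protein C (Proc) circulate in plasma. Serpinc1 had 11949 in PDPN+, 18837 in PDPN-, 6655 in ITGA8+, 4236 in ITGA8-, 1778 in ALCAM+ and 892 in liver. Serpind1 had 8588, 17148, 2676 and 3758 in PDPN+, PDPN-, ITGA8+ and ITGA8-, with 889 in ALCAM+ and 660 in liver. Proc had 4309, 9715, 2301 and 1615, with 890 in ALCAM+ and 332 in liver. All 3 were highest in PDPN-, and Proc was 2.25-fold lower in PDPN+ (-1.17), while Serpinc1 (-0.66) and Serpind1 (-0.996, a 1.99-fold difference) stayed short of 2-fold.

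Thrombomodulin (Thbd), the protein C receptor (Procr) and tissue factor pathway inhibitor (Tfpi) were lowest in PDPN-, where Thbd and Procr were below the floor. Procr had 281 in PDPN+, 80 in PDPN-, 179 in ITGA8+, 378 in ITGA8-, 59 in ALCAM+ and 30 in liver. Like F3, it was high in PDPN+ and ITGA8-, 3.09-fold higher in PDPN+ (1.63) and 2.02-fold lower in ITGA8+ (-1.01, or -0.86 with a pseudocount of 64). Tfpi, which blocks the complex of tissue factor with factor VII, had 3376, 1939, 2317 and 3553 in PDPN+, PDPN-, ITGA8+ and ITGA8-, with 1083 in ALCAM+ and 302 in liver. By this probe set, its brightest, Tfpi went the same way at less than 2-fold, by 0.79 and -0.61. Its other probe sets were at 1.64, 0.86 and 0.96 in the PDPN sort. In the ITGA8 sort they were at 0.19, -0.75 and 1.16, so the sign there depended on the probe set. Thbd, which turns thrombin from clotting to protein C activation, had 200 and 93 in PDPN+ and PDPN- but 2293 and 2700 in ITGA8+ and ITGA8-, with 624 in ALCAM+ and 213 in liver. Thbd was the 1 gene of the 34 for which both PDPN arrays lay below both ITGA8 arrays, against 31.1% of 13394 genes. Its differences within the sorts were 0.99 and -0.23. Pros1, the protein S cofactor of protein C, had 4161, 5119, 4330 and 2785, with 2803 in ALCAM+ and 986 in liver. It differed by -0.30 in the PDPN sort, and its values overlapped between the sorts.

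The fibrinolytic and contact genes were again highest in PDPN-. Plasminogen (Plg) had 1939 in PDPN+, 6675 in PDPN-, 1552 in ITGA8+, 732 in ITGA8-, 458 in ALCAM+ and 225 in liver. It was 3.42-fold lower in PDPN+ (-1.78) and 2.10-fold higher in ITGA8+ (1.07), so PDPN- and ITGA8+ were the high fraction of their sorts. Serpinf2, the plasmin inhibitor alpha 2-antiplasmin, had 11434, 17860, 3643 and 5894 in PDPN+, PDPN-, ITGA8+ and ITGA8-, with 1617 in ALCAM+ and 1759 in liver. Cpb2, a carboxypeptidase that protects fibrin, had 8094, 15632, 4502 and 3346, with 911 in ALCAM+ and 422 in liver. These last 2 differed by -0.64 and -0.95 in the PDPN sort, short of 2-fold.

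In the contact system, prekallikrein (Klkb1) had 1007 in PDPN+, 3078 in PDPN-, 371 in ITGA8+, 277 in ITGA8-, 158 in ALCAM+ and 117 in liver, and was 3.02-fold lower in PDPN+ (-1.60). Its substrate kininogen (Kng1) had 15961, 22046, 8302 and 7657 in PDPN+, PDPN-, ITGA8+ and ITGA8-, with 3296 in ALCAM+ and 2159 in liver, a difference of -0.47. Serping1, the C1 inhibitor that restrains both the contact system and the classical complement route, had 4788, 6977, 2108 and 2436, with 809 in ALCAM+ and 175 in liver, a difference of -0.54. Both ITGA8 fractions lay below both PDPN fractions for each of the 3, as for 21.1% of 13394 genes. Differences in handling between the sorts cannot be told apart from the sorts themselves.

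Complement genes, from the first protease to the pore, were also highest in PDPN-, apart from C6. C1s, a protease of the C1 complex, had 2489 in PDPN+, 6518 in PDPN-, 793 in ITGA8+, 1018 in ITGA8-, 217 in ALCAM+ and 137 in liver, and was 2.61-fold lower in PDPN+ (-1.38). C2, the protease of the classical C3 convertase, had 1589, 6209, 1954 and 1062 in PDPN+, PDPN-, ITGA8+ and ITGA8-, with 455 in ALCAM+ and 130 in liver, 3.88-fold lower in PDPN+ (-1.96). Cfi, the protease that inactivates C3b, had 9399, 16292, 4813 and 4297, with 1354 in ALCAM+ and 635 in liver, a difference of -0.79. Of these, C2 was the 1 whose ITGA8+ value exceeded PDPN+, by its brightest probe set. Its other probe sets differed in this, with 818 in PDPN+ and 382 in ITGA8+ for one and 438 and 651 for the other. Macrophages make classical complement components too, and their summed markers were 19625 and 541 in PDPN+ and PDPN- against 2375 and 1206 in ITGA8+ and ITGA8-. The part of macrophages in the C1s and C2 values was not tested.

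The terminal genes build the membrane pore. Hc, which encodes C5, had 5853 in PDPN+, 10792 in PDPN-, 2510 in ITGA8+, 1599 in ITGA8-, 1254 in ALCAM+ and 242 in liver, a difference of -0.88 in the PDPN sort. Complement C8 has 3 chains: C8a had 5187, 9916, 3830 and 2561 in PDPN+, PDPN-, ITGA8+ and ITGA8-, with 654 in ALCAM+ and 275 in liver. C8b had 788, 2861, 389 and 214, with 237 in ALCAM+ and 85 in liver. C8 chains were all highest in PDPN-, but unlike the fibrinogen chains they differed by unequal amounts, C8a by -0.93 and C8b by -1.84, a 3.58-fold gap. C8g had 2457, 6265, 584 and 575, with 207 in ALCAM+ and 107 in liver, 2.54-fold lower in PDPN+ (-1.34). C9, which polymerises to form the pore wall, had 39, 315, 125 and 74, with 36 in ALCAM+ and 26 in liver, and was above the floor in PDPN- alone, 6.02-fold above PDPN+ (-2.59). C6 had 82, 40, 134 and 96 in PDPN+, PDPN-, ITGA8+ and ITGA8-, below the floor throughout, and was not counted there, with 63 in ALCAM+ and 90 in liver.

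By the brightest probe set of each gene, neighbouring genes had close differences in 1 cluster and unequal ones in the other 3. The fibrinogen genes on chromosome 3 lay between -0.69 and -0.55. In the RefSeq gene order of GRCm38.p6, F7 lies next to F10 and F11 next to Klkb1 on chromosome 8, and C8b next to C8a on chromosome 4. In the PDPN sort the differences were -1.59 and -1.01 for the first pair, -2.25 and -1.60 for the second and -1.84 and -0.93 for the third. By its other probe sets F10 was at -1.73 and -1.83, nearer to F7. The fibrinogen genes were all above 10000 in PDPN-, where the hepatocyte-made genes ran only from -1.01 to -0.47.

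Because the hepatocyte-made genes differed in 1 direction, the sequence around their start sites was read for the core letters of 4 liver transcription factor motifs, on both strands. RefSeq promoters of GRCm38.p6, from 250 bases before to 50 bases after each annotated start, matched 28 of the 35 genes, 21 hepatocyte-made and 7 others; C2, Cfi, Kng1, Plg, Proc, Serping1 and Thbd were not matched. The core of the HNF1 motif, GTTAAT, was in 7 of the 21 (C8a, C8b, F13b, F2, Fga, Fgb and Hc), or 33.3%, in 0 of the 7 others and in 8.24% of 27025 genes. The core of the C/EBP motif, TTGCNNAA, was in 8 of 21 (38.1%), 2 of 7 and 12.2% of all genes. The core of the HNF4 motif, CAAAGTNCA, was in F9 and Serpind1, 2 of 21, against 1.64%, and the core of the FOXA motif, TGTTTAC, in F11 and Klkb1, 2 of 21, against 4.05%. These spellings were chosen after others had been looked at, and a match is a description of letters, not a binding site.

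The 5 promoters below show the gene with the lowest difference in the PDPN sort (F9), 3 that hold the HNF1 core (Fgb, F13b and Hc) and the gene with the highest difference (F3), which holds none of the 4 motifs. They are written 5′ to 3′ on the strand of the gene, with motif matches in capitals: TGCACTTTG (HNF4 on the other strand) and TTGCACAA (C/EBP) in F9, TTGCTCAA (C/EBP) and ATTAAC (HNF1 on the other strand) in Fgb, and ATTAAC in F13b and Hc. They lie at chrX:59999214-59999513 (plus strand) for F9, chr3:83049814-83050113 (minus strand) for Fgb, chr1:139501457-139501756 (plus strand) for F13b, chr2:35061363-35061662 (minus strand) for Hc and chr3:121723287-121723586 (plus strand) for F3.
F9: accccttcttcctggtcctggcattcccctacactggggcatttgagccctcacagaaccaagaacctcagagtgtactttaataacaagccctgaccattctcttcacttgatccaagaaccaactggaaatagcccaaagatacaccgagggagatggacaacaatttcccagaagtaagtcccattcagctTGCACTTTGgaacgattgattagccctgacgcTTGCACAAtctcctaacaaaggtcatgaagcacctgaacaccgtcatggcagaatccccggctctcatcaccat
Fgb: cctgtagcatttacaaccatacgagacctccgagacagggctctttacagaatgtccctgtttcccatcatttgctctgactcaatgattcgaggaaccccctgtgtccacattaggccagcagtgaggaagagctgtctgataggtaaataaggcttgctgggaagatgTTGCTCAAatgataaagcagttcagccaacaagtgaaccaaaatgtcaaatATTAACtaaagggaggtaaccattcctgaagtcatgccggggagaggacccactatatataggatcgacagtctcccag
F13b: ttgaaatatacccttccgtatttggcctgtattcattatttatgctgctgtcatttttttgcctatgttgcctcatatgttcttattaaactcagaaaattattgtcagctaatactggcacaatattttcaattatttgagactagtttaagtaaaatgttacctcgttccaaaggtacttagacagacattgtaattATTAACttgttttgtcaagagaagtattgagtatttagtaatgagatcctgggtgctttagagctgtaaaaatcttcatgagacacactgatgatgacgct
Hc: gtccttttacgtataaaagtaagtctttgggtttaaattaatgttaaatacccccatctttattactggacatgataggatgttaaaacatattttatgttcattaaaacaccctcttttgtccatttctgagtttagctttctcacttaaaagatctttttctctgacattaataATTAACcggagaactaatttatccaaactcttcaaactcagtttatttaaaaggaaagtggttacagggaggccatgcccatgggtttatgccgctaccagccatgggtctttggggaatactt
F3: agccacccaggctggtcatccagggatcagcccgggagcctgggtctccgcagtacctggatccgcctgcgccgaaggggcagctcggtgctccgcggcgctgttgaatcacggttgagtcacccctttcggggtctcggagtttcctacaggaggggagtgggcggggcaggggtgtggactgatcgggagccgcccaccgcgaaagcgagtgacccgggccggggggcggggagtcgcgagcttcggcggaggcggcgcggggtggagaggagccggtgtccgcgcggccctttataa

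The size of the difference in the PDPN sort went with the intensity of the probe set in PDPN-, which is itself 1 of the 2 arrays compared. The 12 hepatocyte-made genes above 10000 in PDPN-, among them F2, the fibrinogen chains, Serpinc1 and Kng1, ran from -1.01 to -0.47 with a median of -0.73. The 10 between 1000 and 10000 ran from -2.25 to -0.93 with a median of -1.60, and the 2 below 1000, F9 and C9, were at -3.04 and -2.59. F9 and C9 were above the floor in PDPN- alone, so they could enter only as lower in PDPN+. C6, at 82 in PDPN+ and 40 in PDPN-, was below the floor and was not counted. All genes in the same bands had medians of -0.24, -0.13 and 0.57. The hepatoblast markers, which include Alb, Afp and Ttr at 25926 to 32178 in PDPN-, had a median of -0.37, with 14 of 14 below 0 and 3 of 14 2-fold lower. Of those 3, Foxa2 was at -1.69, Foxa1 at -1.39 and Apob at -1.03, and Alb was at -0.14. How far the top of the intensity range limits these differences was not tested.

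**Figure D2:**
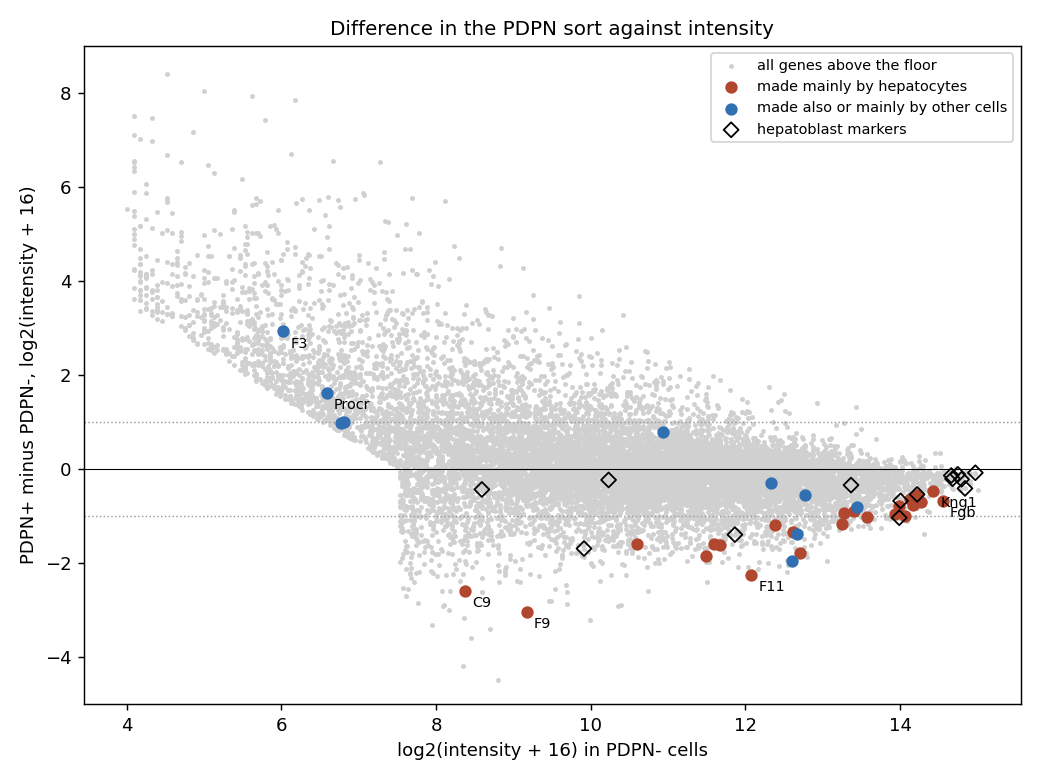
Difference PDPN+ minus PDPN- of log2(intensity + 16) against log2(intensity + 16) in PDPN-, 1 point per gene, with the dotted lines at 2-fold; the slanted edge at the left is made by the floor. The 24 hepatocyte-made genes lie below 0 and inside the cloud, between F9 at -3.04 and Kng1 at -0.47, and F3 and Procr lie above 0.

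In the PDPN sort, the probe sets of a gene gave the same sign for all 5 genes that had several above the floor, 14 probe sets in all. C2 had -2.01, -1.91 and -1.96, F10 had -1.73, -1.83 and -1.01, F5 had -0.80 and -1.38, Kng1 had -0.47 and -1.02, and Tfpi had 1.64, 0.86, 0.79 and 0.96. For F10, F5 and Kng1 the brightest probe set, which represents the gene here, gave the smallest gap.

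The ITGA8 sort showed small differences for the same genes. Of the 31 genes above the floor, 1 was 2-fold higher in ITGA8+ (Plg, 1.07), against 5.20% of 12728 genes, and 2 were 2-fold lower (F3, -1.43, and Procr, -1.01), against 6.03%. The median was 0.02 for the 31 genes, 0.11 for the 21 hepatocyte-made ones and 0.00 for all genes. F5, C2 and C8b came next to Plg at 0.91, 0.87 and 0.82, while F13b was at -0.80, Fgg at -0.77 and Serpinf2 at -0.69. The 4 terminal complement genes above the floor, Hc, C8a, C8b and C8g, were at 0.65, 0.58, 0.82 and 0.02, and the 3 fibrinogen chains at -0.15 to -0.77. F13b, F8 and F3 were above the floor in 1 of the 2 arrays. The sign depended on the probe set for 4 of the 5 genes with several: C2 was at -0.45, 0.98 and 0.87, F10 at 1.08 and -0.21, F5 at 0.91 and -0.15, and Tfpi between -0.75 and 1.16.

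Set side by side, the sorts gave 4 kinds of gene by sign alone, whatever the size of the difference. How many of all genes fall in each kind was not counted. In the ITGA8 sort alone, 6363 of all 12728 genes above the floor were below 0 and 6352 above it. Of the 31 genes above the floor in both, 15 were lower in PDPN+ and higher in ITGA8+, 11 were lower in PDPN+ and also lower in ITGA8+, and 4 (F3, Procr, Tfpi and Thbd) were higher in PDPN+ and lower in ITGA8+. F8 alone was higher in both positive fractions. The first kind includes Plg, C2 and C8b, and the second C1s, F13b, Serpinf2 and the fibrinogen chains. Of the third kind, F3, Procr and Thbd were above the floor of the PDPN sort in PDPN+ alone, and Thbd was at -0.23 in the ITGA8 sort. The ITGA8 sign of Tfpi, C2, F5 and F10 depended on the probe set. For C8g and F11 the ITGA8 differences were only 0.02 and -0.07.

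**Figure D3:**
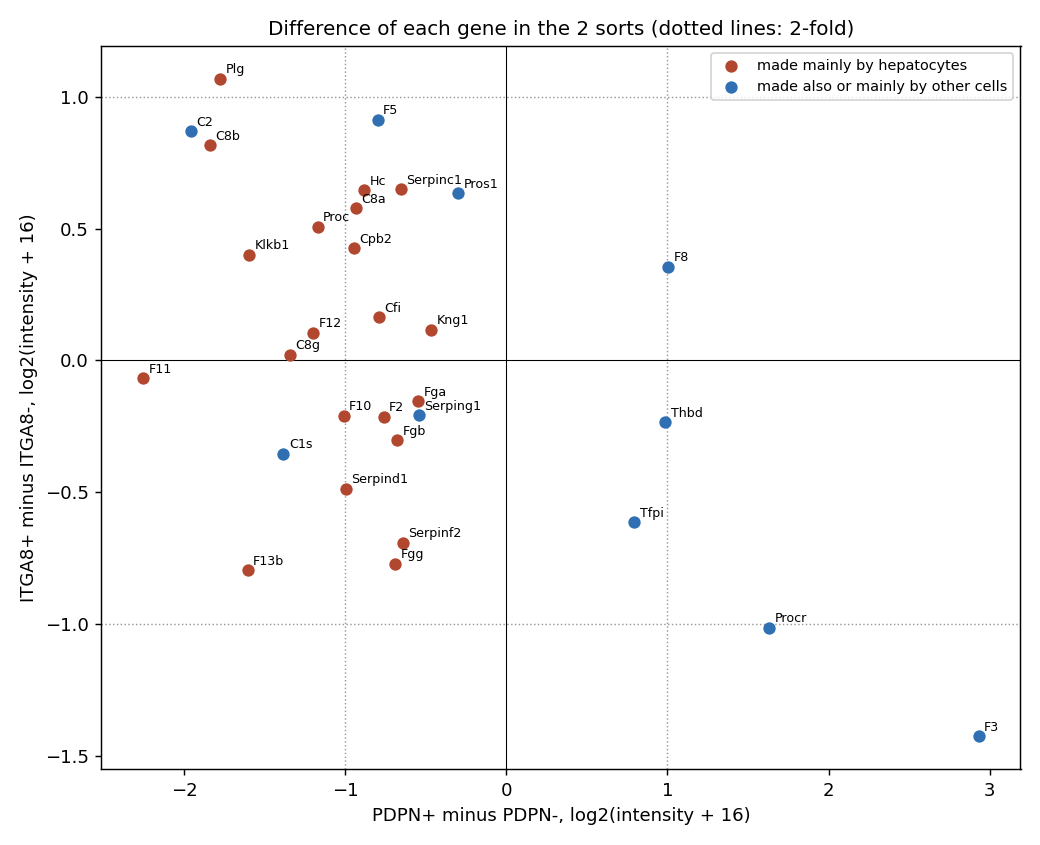
Difference ITGA8+ minus ITGA8- against PDPN+ minus PDPN-, both of log2(intensity + 16), for the 31 genes above the floor in both sorts, coloured by the usual source of the protein; each axis is a difference between 2 arrays. All 21 hepatocyte-made genes lie left of 0, F3 lies at 2.93 and -1.43, and the vertical spread on the left reaches from -0.80 to 1.07.

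The hepatocyte-made genes also differed between the sorts, in a comparison added after the data had been seen. Both PDPN arrays lay above both ITGA8 arrays for 22 of the 24 hepatocyte-made genes, F9 and C9 being the others, against 21.1% of 13394 genes, and below for 0, against 31.1%. The mean log2 value over the PDPN arrays exceeded that over the ITGA8 arrays by a median of 1.68 for these genes, where the median of all genes was -0.15. The gap was 7.82-fold for F13b, 6.62-fold for C8g, 5.37-fold for F7, 5.28-fold for Klkb1 and, at the low end of the 22, 2.35-fold for Kng1 and 2.28-fold for C8a. F7 in both ITGA8 arrays and F13b in ITGA8+ were below the floor, so their folds are set against values not above it. Among the other genes, F5, Serping1 and C1s were higher in both PDPN arrays, and Thbd was 16.3-fold lower. Hepatoblast markers lay in that direction for 11 of 14 at a median of 0.60, with summed intensities of 191514 and 238158 in PDPN+ and PDPN- and 164790 and 136182 in ITGA8+ and ITGA8-. Erythroid markers lay in the other for 6 of 6, with sums of 2249 and 1608 against 22180 and 17654. Their part in the values was not tested, and differences in handling between the sorts cannot be told apart from the sorts themselves.

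Against unsorted liver cells, ALCAM+ cells had few of these genes 2-fold apart. The median of all genes above the floor was 0.86 log2, a 1.81-fold shift toward ALCAM+, and differences are given relative to it. Of the 32 genes that passed the floor, 3 were 2-fold higher: F5 (2.83-fold), Hc (1.44, 2.72-fold) and Serping1 (1.25, 2.38-fold), against 14.4% of 13124 genes. C6, at -1.28 (2.43-fold), was the 1 gene 2-fold lower, against 11.9%. The 22 hepatocyte-made genes had a median of -0.08, and the 10 others had a median of 0.76 with 8 above 0, led by F5, Serping1, Tfpi at 0.93 and F3 at 0.88. Mesothelial markers were 2-fold higher in ALCAM+ for 8 of 9, stellate markers for 6 of 9 and megakaryocyte markers for 7 of 10, while erythroid markers were 2-fold lower for 6 of 6 and neutrophil markers for 5 of 6. Their part in these differences was not tested. Fibrinogen chains were all below 0, at -0.87 for Fga, -0.59 for Fgg and -0.48 for Fgb, as was Serpinf2 at -0.98. As deposited, without subtracting the shift, 14 genes were 2-fold higher and 0 lower, against 43.4% and 3.28% of all genes, and C6 was at -0.42. F8, F3 and Procr were above the floor in ALCAM+ alone. Kng1 and F10 changed sign between their probe sets here, and the other probe set of F5 was at 0.67.

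**Figure D4:**
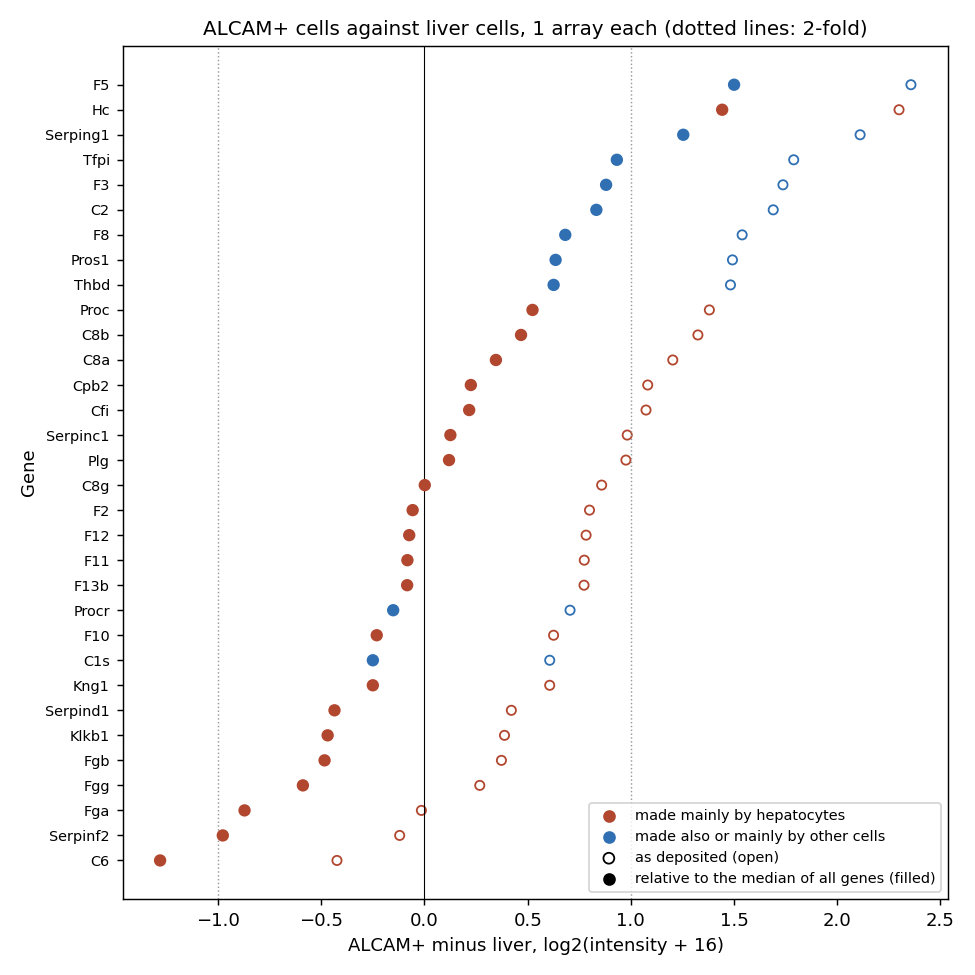
Difference ALCAM+ minus liver of log2(intensity + 16) for the 32 genes above the floor, 1 array each, as deposited (open circles) and relative to the median of all genes (filled circles), coloured by the usual source of the protein. F5, Hc and Serping1 lie past 2-fold relative to the median and C6 lies at -1.28.

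Other genes of the pathways came from a list of 23 coagulation and 26 complement genes, of which C7 was not analysed here. In the PDPN sort 6 of 19 coagulation genes above the floor were 2-fold higher in PDPN+ and 4 were 2-fold lower, beside the 18.6% and 7.59% of all genes. The higher ones were Vwf (5.87), which carries factor VIII, the A subunit gene F13a1 (4.49), the thrombin receptor gene F2rl2 (4.37), the plasminogen activator gene Plat (2.88), S100a10 (1.26) and Plaur (1.18). Of these, Vwf, F13a1, F2rl2 and Plaur were below the floor in PDPN-, at 3, 9, 33 and 67, so they could enter only as higher, and the size of their differences depends on the pseudocount. The lower ones were Proz (-1.67), A2m (-1.52), Hrg (-1.51) and Tfpi2 (-1.17). The subunits of factor XIII thus differed in opposite directions: F13a1 was at 544 in PDPN+ and 9 in PDPN-, while F13b was at 1059 and 3257. Megakaryocyte markers were 2-fold higher in PDPN+ for 9 of 9 above the floor, with summed intensities of 33773 and 336; their part in the Vwf and F13a1 values was not tested. Ggcx, the carboxylase that completes the vitamin K dependent factors, and Vkorc1, which recycles vitamin K, were at -0.98 and -0.68, short of 2-fold.

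Of 21 complement genes above the floor, 8 were 2-fold higher in PDPN+ and 6 were 2-fold lower, beside the 18.6% and 7.59% of all genes. The higher ones were C1qb (7.43), C1qc (7.11), C1qa (4.25), the receptor genes C5ar1 (6.55) and C3ar1 (2.86), the integrin gene Itgb2 (4.01), the regulator Cd55 (3.17) and properdin, Cfp (2.12). The lower ones were C4bp (-2.62), C1ra (3.99-fold), Masp2 (-1.64), Cpn2 (-1.37), Cpn1 (-1.17) and Mbl1 (-1.13). All of the higher genes but Cfp were below the floor in PDPN-, at 1 to 119, so they could enter only as higher. The size of their differences depends on the pseudocount. C1qa, C1qb and C1qc were at 764, 9462 and 2338 in PDPN+ and at 25, 39 and 1 in PDPN-, while C1ra, a protease gene of the same C1 complex, was at 268 and 1117. Macrophage markers were 2-fold higher in PDPN+ for 8 of 8, with sums of 19625 and 541, and their part in the C1q values was not tested.

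In the ITGA8 sort fewer genes of these lists were 2-fold apart. Of 16 coagulation genes 3 were 2-fold higher in ITGA8+, Vwf (2.18), Proz (1.65) and F13a1 (1.60), and 0 were lower, beside 5.20% and 6.03% of all genes. Megakaryocyte markers were 2-fold higher in ITGA8+ for 8 of 10, with sums of 39270 and 17367, and their part in the Vwf and F13a1 values was not tested. Complement genes 2-fold higher in ITGA8+ included C1qb (2.24), Itgb2 (1.39) and Clu (1.27), and 0 of 15 were lower. F13a1 and C1qb were below the floor in ITGA8-, at 163 and 54, so they could enter only as higher. Proz, which encodes protein Z, was at 1001 in ITGA8+ and 308 in ITGA8-. In ALCAM+ against liver, 4 of 18 coagulation genes were 2-fold higher relative to the shift, Vwf (2.02), F2rl2 (1.73), Plat (1.67) and Serpine2 (1.26), and 0 lower, beside 14.4% and 11.9% of all genes. Of 19 complement genes, Clu (1.70) and C1qb (1.11) were 2-fold higher and C3ar1 (-1.86), Cd46 (-1.56) and C5ar1 (-1.22) lower.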

How the data were processed

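RNA of 6 groups was measured on 1 array each, from 20 ng of total RNA per sample per the labels' protocols. The deposited values are intensity values in whole numbers on a linear scale, and RMA and Partek were used per the submitters' processing notes, with versions not given in the sources used here. Of 45101 probe sets, 64 controls, probe sets with no gene and 1280 that named several genes were left out, which left 38011 for 20678 genes. For a gene with several, the probe set brightest on average in the 4 fractions stood for it. Differences were taken of log2(intensity + 16) with pandas 2.3.3 and numpy 2.4.6, and genes were counted at 2-fold. The floor was the median of each set of arrays, 168 and 52. The median of all genes was subtracted where it exceeded 0.1, which applied to ALCAM+ against liver. The code was checked on simulated data. All 35 genes are given with their values, and those 2-fold apart with their fold. The number of arrays limits precision. The members, roles and lists were chosen with earlier results of these data known, and alternatives are in the closing section. One gene of the complement list is not reported here.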

Additional observations from a re-analysis of the deposited data

How the results depend on the processing

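Of the counts and medians recomputed under an alternative, 115 stayed within 1.5-fold and 23 did not. The median over the genes and over the hepatocyte-made genes in the PDPN and ITGA8 sorts moved by less than that under every alternative run (pseudocounts of 1 and 64, other floors, other choices of probe set, the other centring, quantile normalisation, and the probe sets shared with C3, C4b and Cfb, the last added after seeing the data). In the PDPN sort the 3 higher genes became 1 at a floor of 2 times the median and 1 at 4-fold, and the 14 lower genes became 3 at 4-fold. In the ITGA8 sort the 1 higher gene became 2 with quantile normalisation and 0 at 4-fold, and the 2 lower genes became 1 with pseudocount 64, the higher floor, specific probe sets or quantile normalisation, and 0 at 4-fold. In ALCAM+ against liver the 3 higher genes became 5 with pseudocount 1, the mean of all probe sets or quantile normalisation, 9 with no floor, 14 as deposited and 0 at 4-fold. The 1 lower gene there became 2 with pseudocount 1 and 0 with pseudocount 64, no floor, as deposited or at 4-fold. As deposited, the medians of that comparison became 0.92 for the genes and 0.78 for the hepatocyte-made ones. No gene past 2-fold changed sign. F8 in the PDPN sort was below 2-fold with pseudocount 64 (0.77), centring (0.98) or quantile normalisation (0.43), and F10 with quantile normalisation (-0.91). In the ITGA8 sort Procr was short of it with pseudocount 64 (-0.86) or quantile normalisation (-0.80), and C6 against liver with pseudocount 64 (-0.96), no floor (-0.89) or as deposited (-0.42). For the changes at 4-fold and at the higher floor, the stricter limit itself is the difference; for the others the cause was not tested. Leaving out genes that share a probe set was not run, because the main counts already leave them out.
No paired analysis was possible because each group has 1 array and no result comes from a test. With 1 array per group no array could be left out.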

Other observations

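Genes left out of the counts had values on shared probe sets. The probe set for C3, the central complement protein, also names a predicted gene and read 12506 in PDPN+, 18742 in PDPN-, 6997 in ITGA8+, 5776 in ITGA8-, 2594 in ALCAM+ and 1142 in liver, a difference of -0.58 in the PDPN sort. That for C4b, of the classical route, also names a predicted gene and read 119, 519, 82 and 49 in PDPN+, PDPN-, ITGA8+ and ITGA8-, with 41 in ALCAM+ and 24 in liver, a difference of -1.99. That shared by C2 and Cfb, the factor B of the alternative route, read 6952, 13955, 1943 and 2314, with 530 in ALCAM+ and 313 in liver, a difference of -1.004. All 3 were highest in PDPN-, as were the hepatocyte-made genes above the floor.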
